A study of Homo sapiens with 6 samples.

Results

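Glycolysis and the transcriptional response to low oxygen are covered here by 39 genes, chosen by symbol from the 59074 genes of the deposited table. They comprise 22 genes of glucose uptake, glycolysis and its regulation and 17 genes of the hypoxia response. All 39 had a mean of at least 1 CPM (reads of a gene per fixed number of reads in the library), the filter applied before testing, and 36 of them reached 1 CPM in each of the 6 libraries. The other 3 (ALDOC, EGLN3 and ANKRD37) passed through their levels in only some of the cell lines. The libraries came from 3 established human lines of glioblastoma (U251, T98G and LN-229), each transfected with a non-target pool of small interfering RNAs (siControl) or with a pool specific for HOTAIRM1 (siHOTAIRM1) and harvested 72 h later. The line called LN-229 here, after its cell line entry, is spelled LNT229 in the titles of its libraries, and which of these lines it is was not tested. HOTAIRM1 is a long non-coding RNA of the HOXA locus. Each cell line gave 1 library per condition, all cells of both conditions received a transfection with RNAiMAX, and no untransfected cells were analysed here.

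Glycolysis converts glucose into pyruvate in the cytosol, and tumour cells often pass much of this pyruvate on to lactate. The hypoxia-inducible factors, with HIF1A or EPAS1 as the oxygen-regulated subunit, bind ACGTG or GCGTG near genes for glucose transporters, glycolytic enzymes, angiogenic factors and their own regulators. With oxygen present, the prolyl hydroxylases EGLN1 and EGLN3 mark both subunits for degradation, so their protein level is not given by their mRNA. In glioblastoma, this programme is known from the hypoxic cells around necrotic areas.

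The libraries held 52.3 to 104 M reads. The listed genes of a library summed to less than its full CPM scale, to 47.0 and 48.5% of it in LN-229 (siControl and siHOTAIRM1), 50.2 and 42.9% in T98G and 67.2 and 55.9% in U251. The reads outside the listed genes thus took different shares, which moves every CPM of a library alike, and the total behind the scale was inferred from the values. The U251 siControl library stood apart: it was the least deep, and small non-polyadenylated RNA genes took 22.4% of its CPM, against 10.9 to 14.0% in the other 5 libraries. CPM values were compared as log2(CPM + 1), and a change is siHOTAIRM1 minus siControl on that scale, which understates the changes of genes near 1 CPM. The 14294 tested genes had a median change of 0.01 in LN-229 cells, of -0.19 in T98G cells and of -0.03 in U251 cells. Of 8 glioma markers, VIM and CD44 were expressed in every library, whereas NES, SOX2 and S100B were near 0 in T98G and GFAP reached 1 CPM in U251 only. Markers of immune (0.581 to 8.09 CPM, 5 genes summed), endothelial (0.417 to 11.5 CPM, 4 genes) and neuronal cells (6.76 to 33.5 CPM, 4 genes) were low, and the 4 epithelial markers summed to 3.68 to 97.3 CPM.

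HOTAIRM1 itself fell over the 3 cell lines by 0.54 on the log2 scale (SE 0.12, limma, Benjamini-Hochberg adjusted p = 0.0146). Its CPM was lower by 52.2% in LN-229 (95% interval of its counting error 38.6 to 63.0%), by 38.5% in T98G (24.5 to 50.1%) and by 51.1% in U251 (30.5 to 66.1%). PGK1, the phosphoglycerate kinase that makes the first ATP of glycolysis, served as the reference gene of the qRT-PCR in the study. Relative to PGK1 in the same library, HOTAIRM1 was lower by 55.6% in LN-229 cells, by 19.7% in T98G cells and by 68.2% in U251 cells. Relative to GAPDH, another common reference gene and the glyceraldehyde phosphate dehydrogenase of glycolysis, LN-229 had a reduction of 41.8%, T98G of -0.85% (interval -23.8 to 18.1%) and U251 of 53.0%. The measured knock-down in T98G thus ranged from none to 38.5% with the choice of reference, and both reference genes are glycolytic enzymes whose own CPM differed between the conditions. In these bulk libraries, fewer cells expressing a gene and less RNA of it per cell cannot be told apart.

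The first comparison asked whether knock-down of HOTAIRM1 moved these genes alike in the 3 cell lines. None of the 39 passed the threshold of 0.05, whereas 2.0% of the tested genes did, 0.413% upward and 1.59% downward (limma with the cell line as block, Benjamini-Hochberg adjustment over 14294 genes), and 8 members (20.5%) had an unadjusted p under 0.05, near the 18.3% of all tested genes. The largest of these 8 was HK2, the inducible hexokinase that traps glucose in the cell, at 0.61 (SE 0.19, adjusted p = 0.0788), and at 0.16 without U251 and 1.07 without T98G. ADM, which encodes the vasodilator peptide adrenomedullin, had 0.46 (SE 0.15, adjusted p = 0.101), and PDK1, the kinase that inhibits pyruvate dehydrogenase, had 0.47 (SE 0.16, adjusted p = 0.104). SLC2A3, the high-affinity glucose transporter GLUT3, had 0.45 (SE 0.16, adjusted p = 0.115), and 0.26 (adjusted p = 0.346) with the reads of its pseudogenes added. The remaining 4 were NDRG1 (0.46), BNIP3L (0.32), ALDOC (0.25) and PFKM (-0.32). With a pseudocount of 0.1 in place of 1, HK2, ADM, PDK1 and SLC2A3 passed, with adjusted p-values between 0.00620 and 0.0446, where 4.78% of all tested genes passed.

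The cell lines differed in direction, which was not tested. Only 8 of the 39 members moved the same way in all 3, 5 of them upward and 3 downward, against 39.5% of the tested genes. For 28 members the change was above 0 in U251 and below 0 in T98G. Taken separately, 45.7% of the tested genes were above 0 in U251 and 79.3% below 0 in T98G. The share of tested genes with both was not counted. The change was the highest of the 3 in U251 for 29 members (40.4% of tested genes) and the lowest of the 3 in T98G for 35 members (58.8% of tested genes). Changes within a cell line rest on 1 library per condition and have no replicate check. They were therefore described without a test, by a log2 difference of at least 0.5 and by 95% intervals that cover counting error only.

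**Figure D1:**
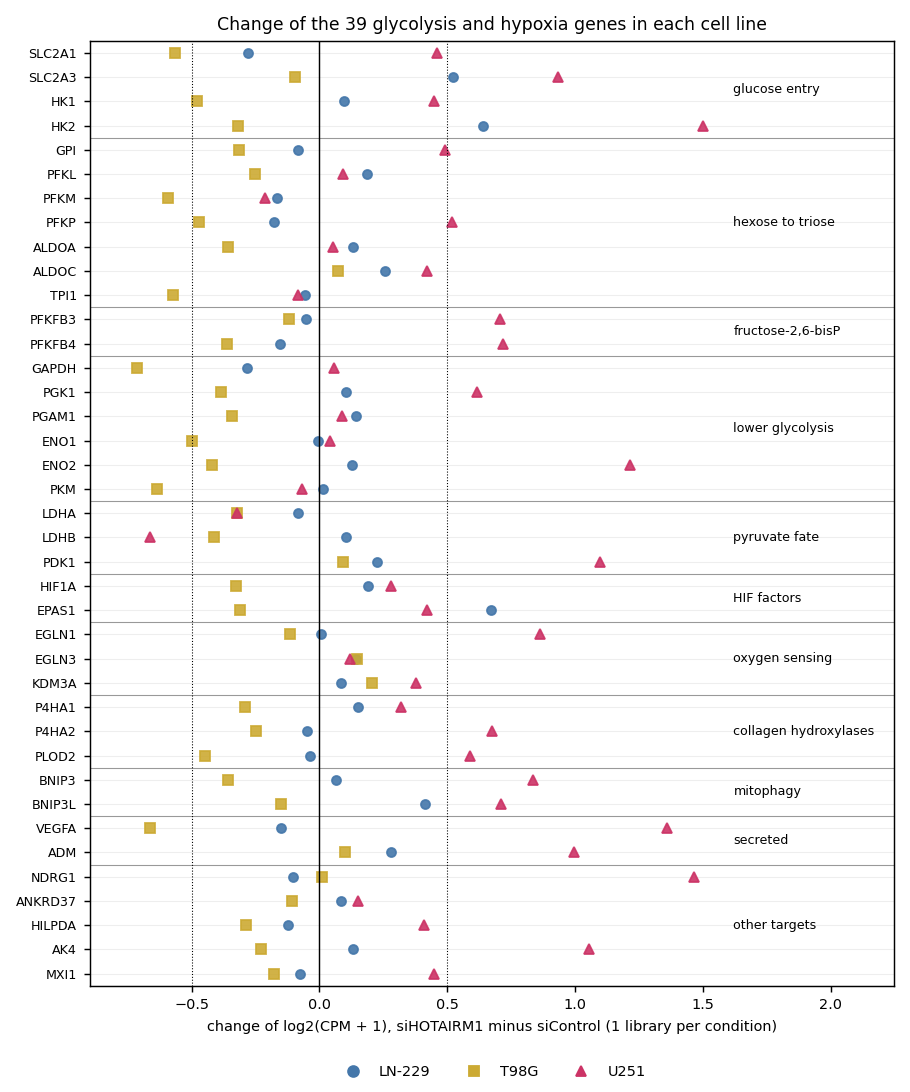
Change of each of the 39 genes (siHOTAIRM1 minus siControl, log2(CPM + 1)) in LN-229, T98G and U251, grouped by role. In U251, 34 of the 39 points lie above 0 (45.7% of all tested genes), and in T98G 33 of 39 lie below 0 (79.3% of all tested genes).

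In U251, 17 of the 39 genes were higher by at least 0.5 after knock-down and 1 was lower, where 6.56% and 11.9% of the tested genes were. The median change of the members was 0.45, against -0.03 for all tested genes. The 17 hypoxia genes were all above 0, with a median of 0.59 and 9 of them at 0.5 or more. The 22 glycolytic genes had a median of 0.44, with 8 at 0.5 or more and 17 above 0. The summed level of the hypoxia genes was 1433 CPM in siControl and 2132 CPM in siHOTAIRM1 U251 cells, and that of the glycolytic genes 9502 and 10240 CPM.

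Of the 4 transcripts for glucose uptake and phosphorylation, HK2 and SLC2A3 were higher by at least 0.5 in U251, and SLC2A1 (0.46) and HK1 (0.45) were below that limit. HK2 (chr2:74834127-74893359, plus strand, hg38) had the largest difference of all members, with 12.5 CPM in siControl and 37.3 CPM in siHOTAIRM1, a 2.98-fold difference (log2 ratio interval 1.45 to 1.70). In LN-229 its levels were 20.2 and 32.0 CPM and in T98G 20.4 and 16.1 CPM, so the U251 libraries held both the lowest and the highest of the 6 values. SLC2A3 had 11.8 and 23.5 CPM in U251 (1.99-fold), 6.39 and 9.60 CPM in LN-229 and 39.1 and 36.5 CPM in T98G. For SLC2A3, pseudogenes carrying its symbol held 65.9% of its own level in the U251 siControl library and 3.79% in the siHOTAIRM1 library, and with their reads added the U251 difference was 0.30 instead of 0.93. SLC2A1, the basal glucose transporter GLUT1, was at 166 and 229.4 CPM in U251, at 57.5 and 47.2 CPM in LN-229 and at 151 and 101 CPM in T98G. HK1, the constitutive hexokinase, and SLC2A1 were both lower in T98G after knock-down.

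The regulators of glycolytic flux among the members, PFKFB3, PFKFB4 and PDK1, were higher in U251. PFKFB3 and PFKFB4, bifunctional enzymes that set the level of the allosteric activator of phosphofructokinase, were higher 1.64-fold and 1.65-fold. PDK1 had 44.8 and 96.9 CPM in U251 (2.16-fold), against 27.2 and 32.0 CPM in LN-229 and 30.9 and 33.0 CPM in T98G. PDK1 was thus higher with siHOTAIRM1 in each of the 3 cell lines, with a far larger difference in U251. Tested paralogs outside the members did not share this rise in U251. The change was -0.13 for PFKFB2, -0.07 for PDK2 and 0.06 for PDK3, and PDK4 was at 0 CPM in both U251 libraries.

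The enzymes of the main glycolytic sequence were mixed in U251, some higher and others little changed or lower. Between hexose phosphate and triose phosphate, PFKP, the platelet-type phosphofructokinase, was the only one of 7 enzymes above 0.5 in U251, at 0.52, with 81.6 and 117 CPM, against 55.5 and 48.9 CPM in LN-229 and 72.4 and 52.0 CPM in T98G. It stood just inside the limit, and GPI, the glucose phosphate isomerase, just outside it at 0.49. PFKM, the muscle-type isozyme, was lower in all 3 cell lines: it had 40.8 and 36.2 CPM in LN-229, 45.4 and 29.8 CPM in T98G and 38.2 and 32.8 CPM in U251. Below the triose phosphates, PGK1 had 679 and 1043 CPM in U251 (1.54-fold, log2 ratio interval 0.60 to 0.64), 207 and 222 CPM in LN-229 and 408 and 312 CPM in T98G. ENO2, the neuronal enolase (chr12:6913745-6923698, plus strand), had 17.4 and 41.8 CPM in U251, a 2.4-fold difference, against 14.6 and 16.0 CPM in LN-229 and 16.6 and 12.2 CPM in T98G. Several abundant enzymes, unlike the also abundant PGK1, differed little in U251: GAPDH by 0.06, ENO1 by 0.04, PGAM1 by 0.09, ALDOA by 0.05, TPI1 by -0.08 and PKM, the pyruvate kinase, by -0.07. LDHB, the heart-type subunit of lactate dehydrogenase, was the 1 member lower by at least 0.5, with 385 and 242 CPM in U251, 320 and 344 CPM in LN-229 and 263 and 197 CPM in T98G.

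Among the hypoxia genes, those encoding secreted factors differed strongly in U251. VEGFA, the main angiogenic factor (chr6:43770184-43786487, plus strand), had 49.9 CPM in siControl and 130 CPM in siHOTAIRM1 U251 cells, a 2.60-fold difference (log2 ratio interval 1.32 to 1.44). Its levels in LN-229 were 25.4 and 22.8 CPM and in T98G 53.3 and 33.2 CPM, so that it was lower after knock-down in both of these lines. ADM had 8.19 and 17.3 CPM in U251 (2.11-fold), 16.2 and 19.9 CPM in LN-229 and 73.4 and 78.8 CPM in T98G, higher in each line. NDRG1, a stress-inducible growth regulator, had 28.1 and 79.5 CPM in U251 (2.83-fold, log2 ratio interval 1.42 to 1.58), whereas it had 43.8 and 40.6 CPM in LN-229 and 99.5 and 100 CPM in T98G. AK4, a mitochondrial adenylate kinase, was 2.10-fold higher in U251.

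Feedback and remodelling genes of the same response followed in U251 with smaller differences. EGLN1 was 1.84-fold higher, with 40.8 and 75.0 CPM, and its level was nearly equal between conditions in LN-229 (63.3 and 63.6 CPM) and T98G (20.0 and 18.4 CPM). EGLN3 differed little in any line, with 19.9 and 21.7 CPM in U251, 10.7 and 12.0 CPM in T98G and 0.453 and 0.606 CPM in LN-229. BNIP3 and BNIP3L, receptors for the removal of mitochondria by autophagy, were 1.80-fold and 1.64-fold higher. For BNIP3, 39 pseudogenes carrying its symbol held 31.0 to 69.8% of its own level, so its reads are partly ambiguous, and its U251 difference was 0.73 with them added and 0.84 without. P4HA2, a collagen prolyl hydroxylase, was 1.61-fold higher, and the collagen lysyl hydroxylase PLOD2 1.51-fold. The histone demethylase KDM3A had 47.1 and 61.5 CPM in U251, 28.6 and 30.4 CPM in LN-229 and 26.5 and 30.7 CPM in T98G. P4HA1, HILPDA, MXI1 and ANKRD37 stayed below 0.5, between 0.15 and 0.45. The transcripts of the factors themselves were also below 0.5 in U251, HIF1A at 0.28 and EPAS1 at 0.42.

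Other measures moved with the U251 contrast. The share of small RNA went from 22.4% in siControl to 13.7% in siHOTAIRM1, the depth from 52.3 to 101 M reads, and longer transcripts tended toward higher changes (Spearman's rho 0.31 over 13129 genes and 0.53 over the 39 members, a description across genes of the same pair of libraries). The median transcript length was 3090 bases for the members and 3252 bases for the tested genes. With libraries centred on their medians, 21 members were higher by at least 0.5 and 1 lower (9.40 and 8.75% of all tested genes). With the scale taken without small RNA, these counts were 24 and 1 (12.5 and 8.64%), and with the length trend removed 19 and 0 (7.46 and 7.75%). The part of culture density, oxygen supply or transfection response in these values was not tested.

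**Figure D2:**
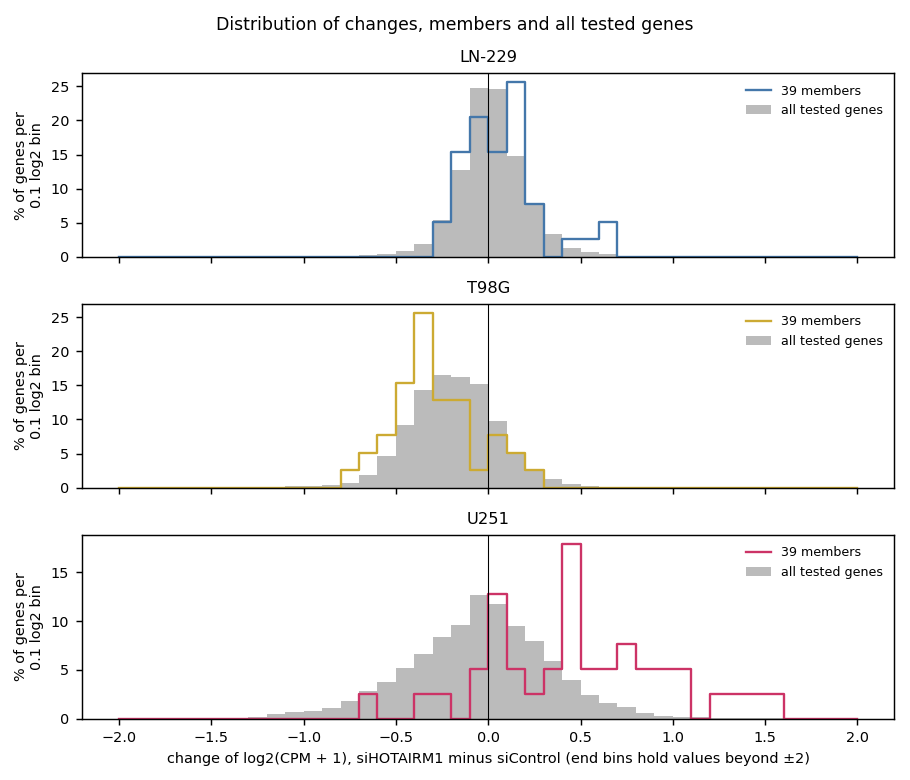
Share of the 14294 tested genes by log2 change in each cell line (bars), with the share of the 39 genes as a stepped outline. The outline spreads to the right of the bulk in U251 (median 0.45 against -0.03). It lies mostly left of 0 with the bulk in T98G (-0.32 against -0.19) and near 0 in LN-229 (0.08 against 0.01).

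The letters ACGTG, one form of the core bound by hypoxia-inducible factors, were searched on both strands of RefSeq promoters (GRCh38.p14, 250 bases before to 50 bases after the start), which were matched for 34 of the 39 members. They were present in 14 of the 34 (41.2%), against 21.6% of all 27305 promoters and 27.2% of those of tested genes. Of the 13 members with a promoter that were higher by at least 0.5 in U251, 7 held them (53.8%), and of the 21 others, 7 (33.3%). The form GCGTG was in 52.9% of member promoters, 36.3% of all promoters and 51.0% of those of tested genes. It was in 8 of the 13 higher members (61.5%) and in 10 of the 21 others (47.6%). Either form was in 10 of the 13 (76.9%) and in 15 of the 21 (71.4%), against 63.6% of promoters of tested genes. The higher and the other members thus differed little in holding either form, and no difference between them was tested. A match is a string of letters and not a measured binding site, and the palindrome CACGTG counts on both strands. Windows of 27 bases around 1 match each are shown for the 7 members that were higher in U251 and held the letters, and for LDHA and GAPDH, which held them and were not higher, with ACGTG in capitals, written 5′ to 3′ on the strand of the match.
AK4, chr1:65147449-65147475, plus strand: tcgcagggagcACGTGggccaggcagg
EGLN1, chr1:231422285-231422311, minus strand: ggccgtggtgtACGTGcagagcgcgca
HK2, chr2:74834068-74834094, minus strand: ccggatcagtgACGTGcgcacgcccat
PLOD2, chr3:146161315-146161341, minus strand: aaacagtccagACGTGgggcccaggag
BNIP3, chr10:131982042-131982068, plus strand: gtgcgtgtggcACGTGcggcgcgtgcg
ENO2, chr12:6914451-6914477, plus strand: cccgcgctcgtACGTGcgcctccgccg
PGK1, chrX:78104054-78104080, minus strand: gtactagtgagACGTGcggcttccgtt
LDHA, chr11:18394466-18394492, plus strand: gcccgactcacACGTGggttcccgcac
GAPDH, chr12:6535173-6535199, plus strand: tctgcggggtcACGTGtcgcagaggag

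In T98G, 6 of the 39 genes were lower by at least 0.5 and 0 were higher, where 8.26% and 0.644% of the tested genes were. The 6 were GAPDH (-0.71), VEGFA (-0.66), PKM (-0.63), PFKM (-0.59), TPI1 (-0.57) and SLC2A1 (-0.57), of which all but VEGFA belong to glucose uptake or glycolysis. GAPDH had 2051 and 1251 CPM in T98G, against 1563 and 1283 CPM in LN-229 and 2192 and 2278 CPM in U251. PKM had 1953 and 1258 CPM in T98G, with 874 and 882 CPM in LN-229 and 2120 and 2020 CPM in U251. These 2 abundant transcripts were thus near the U251 level in T98G siControl cells and well below it after knock-down. The summed glycolytic level in T98G was 8448 CPM in siControl and 5841 CPM in siHOTAIRM1, while the hypoxia genes summed to 1560 and 1258 CPM. The largest upward differences were those of KDM3A (0.21), EGLN3 (0.15) and ADM (0.10).

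The median change of the members in T98G was -0.32, against -0.19 for all tested genes. With the libraries centred on their medians, the median of the members was -0.12, that of all tested genes 0.01, and 1 member was lower by at least 0.5 (1.81% of tested genes). The difference between these medians was -0.13 both as measured and centred. With the scale taken without small RNA, or with the length trend removed, the median of the members was -0.11, which was -0.10 relative to all tested genes, and 0 members were lower by at least 0.5.

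In LN-229, 3 of the 39 genes were higher by at least 0.5 and 0 were lower, where 1.47% and 0.993% of the tested genes were. EPAS1, the HIF subunit known as HIF-2 alpha, was higher by 0.67, with 3.59 and 6.32 CPM (log2 ratio interval 0.62 to 1.01). HK2 was higher by 0.64 and SLC2A3 by 0.52. These last 2 genes were higher after knock-down in LN-229 and U251 and lower in T98G. The largest downward differences were those of GAPDH and SLC2A1 (both -0.28) and PFKP (-0.18). The median of the members was 0.08, and 23 of the 39 were above 0, against 53.3% of the tested genes.

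**Figure D3:**
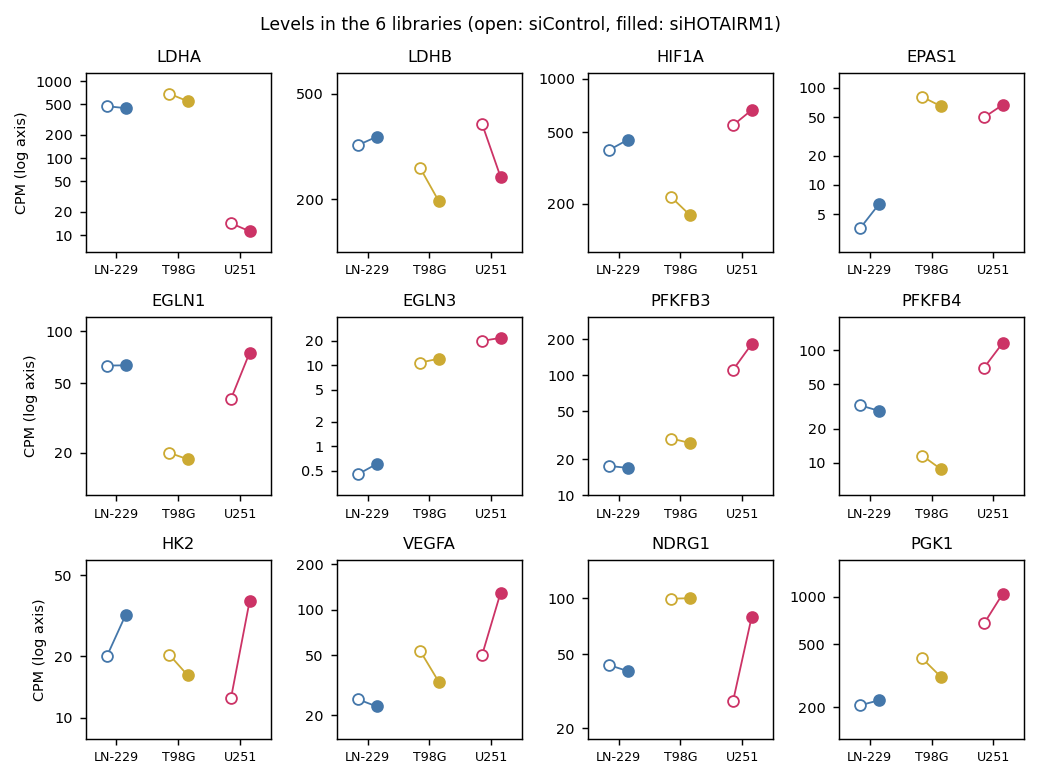
CPM of 12 of the genes on a log axis, with open circles for siControl and filled circles for siHOTAIRM1 in each of the 3 cell lines. LDHA lies at 14.3 and 11.2 CPM in U251 and above 400 CPM in the other lines, and EPAS1 and EGLN3 are lowest in LN-229.

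The lines were then compared in level, with both libraries of a line and the knock-down term in the same limma fit. Of the 39 members, 27 differed between T98G and LN-229 (54.9% of tested genes), 31 between U251 and LN-229 (60.6%) and 27 between U251 and T98G (64.2%). U251 was the higher line in 27 of its 31 differences from LN-229 and in 21 of its 27 from T98G. Of all tested genes, 36.7% passed with U251 above LN-229 and 41.0% with U251 above T98G, which was 60.5 and 64.0% of those that passed. Without ALDOC, EGLN3 and ANKRD37, whose filter was met through some lines only, 25, 28 and 25 of 36 members differed in the 3 contrasts. On the scale without small RNA, U251 was higher than T98G in 15 members and lower in 9, where 31.2% of all tested genes were higher and 33.8% lower, and with centred libraries in 15 and 7 (32.5 and 31.8%). On the deposited scale more tested genes were higher in U251 (41.0%) than lower (23.1%), so the balance over all tested genes depended on the scale. Among the members, more were higher than lower in U251 on each of these scales, by a wider margin on the deposited one. Both U251 libraries lay above the other 4 in 22 members (32.7% of tested genes), and both LN-229 libraries below the other 4 in 19 (21.4%). In T98G, both libraries lay above the other 4 in 6 members, SLC2A3, PFKL, LDHA, NDRG1, ADM and PLOD2 (17.2% of tested genes), and in LN-229 in 2, ALDOC and HILPDA (20.6%).

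LDHA, the muscle-type subunit of lactate dehydrogenase, which turns pyruvate into lactate (chr11:18394560-18408425, plus strand), was the 1 member with both U251 libraries below the other 4 (17.8% of tested genes). Its levels were 473 and 446 CPM in LN-229, 688 and 550 CPM in T98G and 14.3 and 11.2 CPM in U251. U251 thus differed from LN-229 by -5.07 on the log2 scale (SE 0.19, adjusted p = 2.31e-22, limma) and from T98G by -5.50 (adjusted p = 2.50e-23), and T98G cells held 48.6 times the mean CPM of U251 cells. LN-229 and T98G did not pass the threshold for LDHA (adjusted p = 0.0660). The 6 pseudogenes carrying the symbol of LDHA held 7.49 to 15% of its level in each library. Of the annotated neighbours within 200 kb, GTF2H1, a subunit of a general transcription factor, had 53.7 and 39.3 CPM in U251, TSG101 29.8 and 22.9 CPM and HPS5 32.5 and 24.7 CPM, so expression from this stretch of chromosome 11 was measured on both sides of LDHA. SAA1 and SAA2 in the same stretch were listed at 0 in both U251 libraries. LDHB differed far less between the lines, and per kilobase of transcript it made up 97.9% of LDHA plus LDHB in U251 siControl cells, against 53.8% in LN-229 and 39.6% in T98G.

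The HIF subunits were expressed at different levels in the 3 lines. HIF1A had 399 and 455 CPM in LN-229, 218 and 173 CPM in T98G and 549 and 667 CPM in U251, and U251 was 3.11-fold above T98G (adjusted p = 1.47e-07, limma) while U251 and LN-229 missed the threshold (adjusted p = 0.0559). EPAS1 had 80.8 and 64.8 CPM in T98G and 49.7 and 66.9 CPM in U251, which was 14.7-fold and 11.8-fold the mean of LN-229 (adjusted p = 1.84e-18 and 2.77e-17). Between T98G and U251 the groups overlapped for EPAS1 (adjusted p = 0.142). EGLN3 also had its lowest level in LN-229, with T98G at 21.5-fold and U251 at 39.2-fold the mean of LN-229, where it was at 0.453 and 0.606 CPM, and unlike EPAS1 it was higher in U251 than in T98G (1.83-fold, adjusted p = 0.000117). EGLN1 had its lowest level in T98G, and LN-229 and U251 overlapped (adjusted p = 0.406).

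Regulators and targets were highest in U251 by wide margins in several cases. PFKFB3 was 8.53-fold above LN-229 (adjusted p = 5.01e-16, limma) and 5.15-fold above T98G. PFKFB4 was 9.12-fold above T98G, with LN-229 between them. AK4 was 13.6-fold above T98G (adjusted p = 6.01e-17), and BNIP3 7.62-fold above LN-229. ANKRD37 met the filter through U251 alone (3.46 and 3.95 CPM, against 0.467 to 0.827 CPM elsewhere). PGK1 was 4.02-fold above LN-229 (adjusted p = 9.91e-09) and 2.39-fold above T98G (adjusted p = 3.67e-05). T98G had the highest PLOD2, 5.32-fold above LN-229, and the highest ADM, 4.22-fold above LN-229. GAPDH, HK2 and PFKM passed the threshold in none of the 3 contrasts. The counts of members past the threshold moved when 1 library at a time was left out. Such a fit has 1 library for 1 of the lines, so its counts are not given here.

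**Figure D4:**
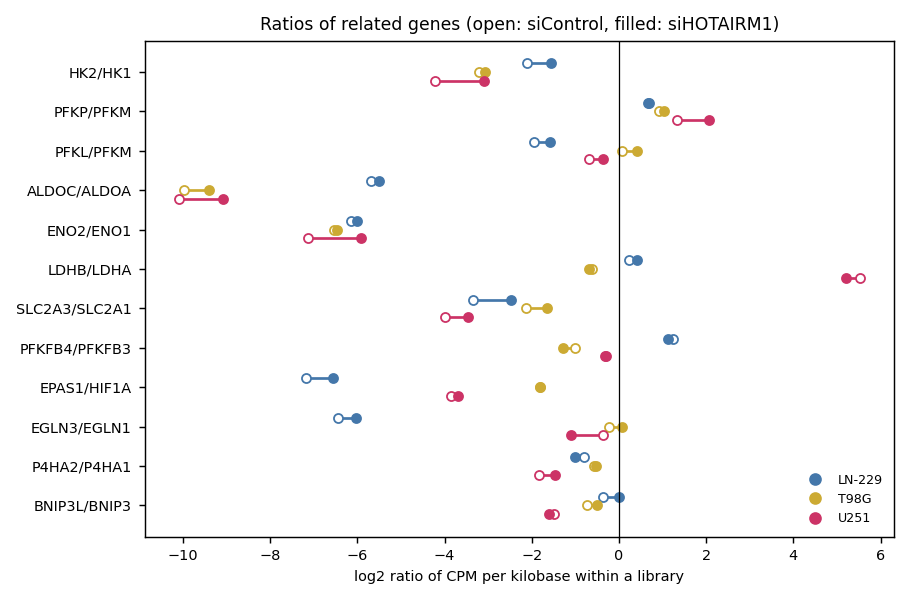
Log2 ratio of paralogous genes per kilobase within a library for 12 pairs in the 3 cell lines, with open circles for siControl and filled circles for siHOTAIRM1. From siControl to siHOTAIRM1, ENO2/ENO1 (1.22), HK2/HK1 (1.12) and the low-level pair ALDOC/ALDOA (1.02) have the highest U251 changes, and EGLN3/EGLN1 the lowest (-0.75).

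Ratios between paralogs within a library do not depend on how the library was scaled, and they were taken per kilobase of transcript. The length cancels in the change of a ratio, so the length trend of the changes in U251 was not removed from these values. HK2 made up 5.10% of HK2 plus HK1 in U251 siControl cells and 10.5% after knock-down, 18.7 and 25.4% in LN-229 and 9.77 and 10.7% in T98G, so the share was higher after knock-down in each line. The ENO2 to ENO1 ratio was higher by 1.22 on the log2 scale in U251, and by 0.14 in LN-229 and 0.05 in T98G. The PFKP to PFKM ratio was higher by 0.74 in U251, with -0.01 in LN-229 and 0.13 in T98G. The isozyme ratios of hexokinase and enolase thus changed most in U251. In T98G the log2 ratio of ENO1 (-0.50) lay inside the counting-error interval of ENO2 (-0.58 to -0.32), so no direction was read for enolase there. SLC2A3 to SLC2A1 was higher in all 3 lines (LN-229 0.87, T98G 0.47 and U251 0.53), but with the pseudogene reads of SLC2A3 added the U251 value was -0.15. PFKL to PFKM was also higher in each line (0.37, 0.35 and 0.32) and was the most even of the 12 pairs. EGLN3 to EGLN1 was higher in LN-229 and T98G and lower by 0.75 in U251. With 3 lines, an exact sign-flip permutation test cannot go below p = 0.25, and the ratios are given as values with no call.

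Other genes of the same pathways were read from 5 further lists. Of 10 tested isoforms of glycolytic enzymes, 15 genes of the pyruvate dehydrogenase complex and its regulators, 15 genes of the pentose phosphate and glycogen pathways and 17 factors of the HIF pathway, 0 passed the threshold of the knock-down fit over the lines (limma, 2.0% of tested genes), with 1, 3, 4 and 3 at an unadjusted p under 0.05 (18.3% of tested genes). The largest upward and downward values of these lists over the lines were ENO3 (0.16) and BPGM (-0.38), PDK4 (0.09) and PDHB (-0.38), GYS1 (0.28) and PGM2 (-0.39), and CREBBP (0.30) and TCEB2 (-0.35). Of 40 tested further hypoxia targets, 1 rose and 3 fell. PPFIA4, a scaffold protein of the liprin family, rose by 0.81 (SE 0.21, adjusted p = 0.0348), with most of the difference in U251, where it had 1.05 and 8.33 CPM. Among those that fell, IGFBP3, which binds insulin-like growth factors, fell by 0.86 (adjusted p = 0.0169, limma), and the carbonic anhydrase CA12 fell by 0.68 (adjusted p = 0.00687). IGFBP3 was lower in LN-229 (-1.83) and T98G (-0.95) and higher in U251 (0.20, with 3.14 and 3.75 CPM). CA12 was lower in each of the 3 lines, with 71.4 and 48.3 CPM in U251, 53.9 and 28.1 CPM in T98G and 3.73 and 2.16 CPM in LN-229.

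Within the lines, those of these 40 targets that differed by at least 0.5 were more often higher in U251 and more often lower in T98G and LN-229. In U251, 15 were higher by at least 0.5 and 2 lower (6.56 and 11.9% of tested genes), with a median of 0.30. In T98G, 0 were higher and 10 lower (0.644 and 8.26% of tested genes). In LN-229, 2 were higher and 5 lower (1.47 and 0.993%), with a median of -0.01.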

How the data were processed

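Libraries were prepared from 500 ng of total RNA (TruSeq RNA Sample Preparation v2). In Partek Flow, the authors trimmed and aligned reads to hg38 with STAR 2.4.1d and assigned them to Ensembl release 84 genes by Expectation-Maximization, which splits reads between transcripts and copies. The table deposited by the authors holds CPM plus an offset of 0.0001, which was subtracted. The worth of 1 read, from the commonest low value, gave the depths; 3 reads correspond to 0.0289 to 0.0574 CPM. Since only 82.3 to 83.4% of values were whole reads within 0.05 of a read, no count test was used.

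The 14294 genes whose mean reached 1 CPM were tested on log2(CPM + 1) with limma 3.58.1 (R 4.3.3; trend, cell line as block), with Benjamini-Hochberg adjustment and a threshold of 0.05. Cell lines served as the 3 replicates. Libraries of the same line, which share a replicate number, deviated together from the condition means (r 0.948 to 0.967, against -0.505 to -0.467 between lines). The labels do not say whether transfections were made in parallel, so p-values measure the spread between these libraries. In the contrasts between lines, each line has 1 library per condition. Their p-values rest on the spread left after a common knock-down term and do not measure the spread between repeat cultures of a line. Intervals within a line are exact binomial (Clopper-Pearson, 95%). Lengths are those of principal transcripts in GENCODE v44, and lengths were matched for 34507 of the listed genes.

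Members, role groups and wider lists were chosen with earlier results of these data known. Values in all libraries are given for PGK1 and for the 3 largest upward and downward changes in each line, and for other members after their values were seen. Of the wider lists, 1 gene past the threshold is counted and not reported here by name. The fit was tested on simulated data. Alternatives were no block, a pseudocount of 0.1, no filter, centred or rescaled libraries, pseudogenes summed, the length trend removed, and single lines or libraries left out. The ratio of SLC2A3 with its pseudogenes and the counts without members under 1 CPM in a library were added after seeing the data.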

Additional observations from a re-analysis of the deposited data

Results flagged for a closer look

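These differences of the log2 change between cell lines were noted because the line pair moved in opposite directions, both as measured and relative to the median of its line, and lay at least 1 apart. Each rests on 1 library per condition and line, and none of the differences was tested. U251 minus T98G was 2.02 for VEGFA, 1.82 for HK2, 1.63 for ENO2, 1.28 for AK4, 1.19 for BNIP3, 1.08 for PFKFB4, 1.04 for PLOD2, 1.03 for SLC2A1 and 1.003 for PGK1. U251 minus LN-229 was 1.57 for NDRG1 and 1.51 for VEGFA. VEGFA is the 1 gene on both lists. The U251 siControl library, which enters every one of these differences, was the least deep and held the largest share of small RNA.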

How the results depend on the processing

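Over the 3 cell lines, the count of members past the threshold was 0 in the reported fit, 0 without the block for the cell line (where 0 of all genes passed too, 29 at an unadjusted p under 0.05), 0 to 0 with 1 line left out, and 4 with a pseudocount of 0.1. With it HK2 was at 0.63, ADM at 0.49, PDK1 at 0.48 and SLC2A3 at 0.49. Over all genes, 286 passed, and 683 with a pseudocount of 0.1, 0 without a filter (2477 at an unadjusted p under 0.05), 41 with centred libraries, 38 on the scale without small RNA, 61 with the length trend removed, and 271, 0 (1206 at an unadjusted p under 0.05) and 149 without LN-229, T98G and U251. Without a filter, 17 members instead of 27 differed between U251 and T98G, and 18 instead of 27 between T98G and LN-229. The shares of all genes fell as well, to 31.4% from 64.2% and to 27.2% from 54.9%. Leaving out a line turned the value of NDRG1 (-0.048 to 0.74), VEGFA (-0.41 to 0.60), PGK1 (-0.14 to 0.36), SLC2A1 (-0.42 to 0.090) and PFKP (-0.32 to 0.17), the first 3 on leaving out U251. Without U251, HK2 was at 0.16, ADM at 0.19 and SLC2A3 at 0.21, and without T98G at 1.07, 0.64 and 0.73. With pseudogenes summed, SLC2A3 was at 0.26 and the change of SLC2A3 to SLC2A1 in U251 at -0.15. PFKP also went from -0.04 to 0.036 with centred libraries, 0.041 with the length trend removed and 0.058 on the scale without small RNA. The median of the members in T98G was -0.12 with centred libraries and -0.11 on the scale without small RNA or with the length trend removed, and in U251 0.53 and 0.57 with the first 2. With GAPDH in place of PGK1, HOTAIRM1 was lower by 41.8% in LN-229, by -0.85% in T98G and by 53.0% in U251. The cause of these shifts was not tested. Counting error is small at these depths (median half-width 0.06 to 0.07 on the log2 scale within a line), and the limit is the single library per condition.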

Other observations

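Beyond the members, the largest U251 differences among the further hypoxia targets, chosen after their values were seen, included CA9, a membrane carbonic anhydrase that is widely used as a marker of hypoxia. It had 29.1 CPM in siControl and 92.8 CPM in siHOTAIRM1 U251 cells (change 1.64), and 0.215 to 0.550 CPM in the other 4 libraries. LOX, a collagen cross-linking oxidase, had 3.06 and 9.74 CPM in U251 (1.40) and 69.2 and 46.6 CPM in T98G. STC2, a secreted glycoprotein, had 18.4 and 42.7 CPM in U251 (1.17) and 65.3 and 37.8 CPM in T98G. LOX and STC2 were thus higher after knock-down in U251 and lower in T98G. VHL, the ubiquitin ligase subunit that recognises hydroxylated HIF subunits, had 22.5 and 39.4 CPM in U251 (0.78), and TCEB2, elongin B of the same ligase, had 39.2 and 23.2 CPM (-0.73). None of these 5 passed the threshold over the 3 cell lines (limma), where CA9 had an adjusted p of 0.106.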
